A study of Populus deltoides x Populus x canadensis with 6 samples.

Results

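A stretch towards the high end of the numbering of poplar chromosome 8 stood at about 50% of its wild type RNA level in the stems of a brassinosteroid receptor mutant. The stretch was defined by gene identifier, from Potri.008G192600 up to, but not including, Potri.008G209100, and held 138 of the 35792 rows of the expression table. These limits had been set from the fold changes of the same 6 libraries, so every difference between genotypes below is a description and carries no test. RNA was sequenced from stems of the hybrid poplar Nanlin 895 (Populus deltoedes × Populus euramericana in the labels' spelling). The mutant group, genotype pdbri1-1;2;3;6, had 3 libraries, and the wild type group (WT) of the same clone had 3. All plants were 45 days old, had 16 h of light a day and 8 h of darkness in a greenhouse, and had no stated treatment. Each library was a pool of 30 plants, taken as the basal 2 cm of the stem after the leaves were removed. The labels do not say how the mutations were made or whether the mutant is 1 transgenic line, so plants of the mutant group may share a background beyond the named genes.

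BRI1 is the receptor kinase at the plasma membrane that binds brassinosteroids, the steroid hormones of plants, and its loss stunts growth and disturbs vascular development. Most plant genes are transcribed from their own promoters, and neighbours along a chromosome need not respond alike to a hormone. In plants that have gained or lost chromosome segments, the transcripts of the affected genes are known to follow gene dose for most genes, while some keep their level and others shift further. No DNA was measured in the data used here, so the copy number of the stretch was not tested. In bulk stem tissue, fewer cells of a type and less RNA per cell cannot be told apart.

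The table names no gene beyond its identifier, so no function is given for any member, and whether the mutated BRI1 genes behave as labelled was not analysed here. Likewise no defining marker of stem tissue could be looked up. Identifiers are written as in the table's symbol column, without the version suffix. Total counts were 20756647, 17752822 and 18351005 in the mutant libraries and 17954948, 20442247 and 21096052 in the wild type libraries. Levels per library are given as CPM, counts scaled to a common library size with TMM factors, and levels compared between genes as FPKM, which also divides by gene length. Fold changes are mutant over wild type on the log2 scale, with the standard error (SE) from the spread of the log2 CPM values between libraries.

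Of the 138 members, 110 had enough counts to enter the fit over all genes (79.7%), against 77.4% of the 1901 other rows of chromosome 8. In 105 of the 110 every library of both genotypes passed the count minimum. Potri.008G194400 and Potri.008G194566 passed it throughout in the wild type alone, Potri.008G203200 in the mutant alone, and Potri.008G195700 and Potri.008G197500 throughout in neither. The first 3 entered because of the genotype in which they are high. The 28 left out were silent or nearly so. No count was found in any library for 13 of them, and no library held more than 14 counts for any of the other 15. Summed over these 28, counts were 28, 37 and 25 in the mutant libraries and 26, 42 and 55 in the wild type libraries, too few to place single genes. Potri.008G202900 was the clearest of them, and was picked after its values were seen. It had 8, 12 and 10 counts in the mutant libraries and 0 in each wild type library. Against a floor of 3 counts over all wild type libraries, its pooled mutant level was 9.61-fold higher, a value without an error. Most of the stretch was lower in the mutant, but its nearest tested neighbours, Potri.008G202800 and Potri.008G203100, fell little, with log2 fold changes of -0.27 and -0.41.

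As a whole the stretch was lower in each mutant library by nearly the same amount. All members together took 0.302%, 0.302% and 0.305% of all counts in the mutant libraries, against 0.543%, 0.550% and 0.539% in the wild type libraries. Scaled by TMM, their summed level was 2910 ± 21.4 CPM in the mutant and 5682 ± 55.1 CPM in the wild type (SD, n = 3 each), a ratio of 0.512. The gap between genotypes was many times the spread between replicates. The median log2 ratio of the 110 measured members to the wild type mean was -1.03, -0.99 and -1.03 in the mutant libraries, while each wild type library stood at 0.00, 0.02 and -0.01 against the mean of the other wild type libraries. The other genes of chromosome 8 had medians of 0.04, 0.02 and 0.02 in the same mutant libraries.

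In the fit over all genes the members had a median log2 fold change of -1.02, or 49.4% of the wild type level, against 0.02 for the 1472 measured genes elsewhere on chromosome 8. The difference of these medians was -1.03. It was the same when libraries were scaled by their totals alone, because a change of scaling shifts all genes by nearly the same amount. With totals alone, all genes shifted upward to a median of 0.13, the median of the stretch was -0.89 and the ratio of summed shares was 0.558. Among the members, 92 of 110 were called lower and 7 higher by edgeR's quasi-likelihood test at an adjusted p under 0.05. Over all 27382 genes tested, 31.0% were called lower and 33.1% higher. Since this contrast chose the stretch, nothing is read from that comparison.

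**Figure D1:**
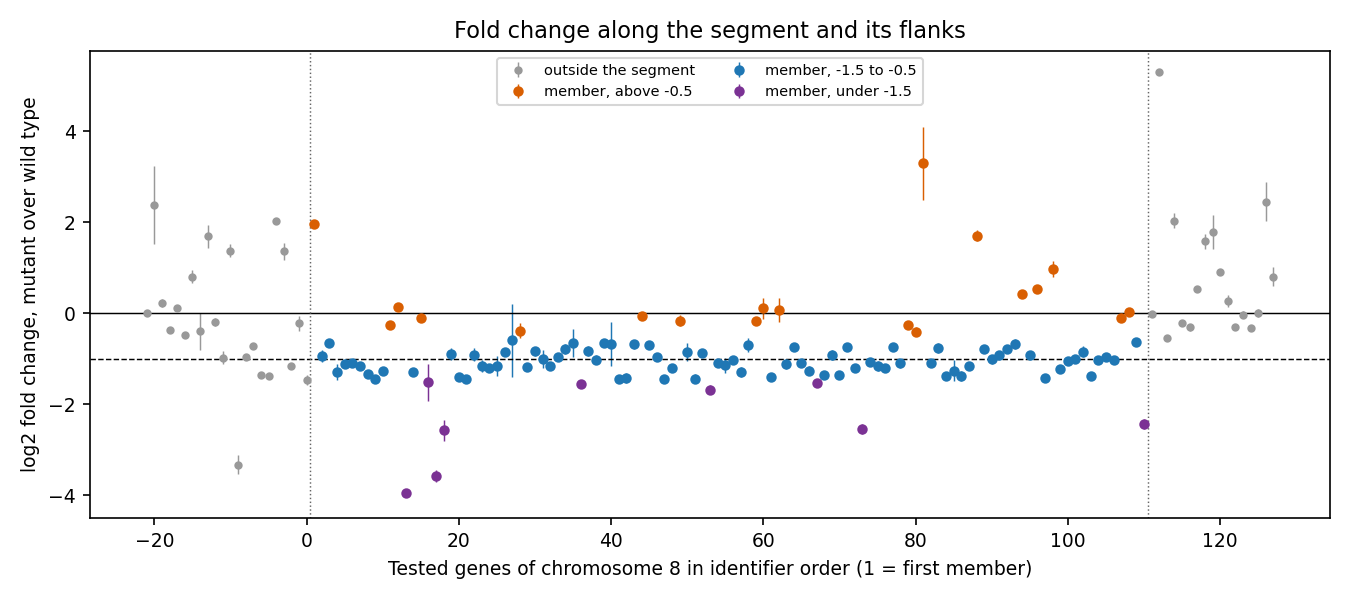
Log2 fold change (mutant over wild type, vertical axis) of tested genes of chromosome 8 in identifier order (horizontal axis, 1 is the first member), with bars for the SE and dotted lines at the limits of the stretch. Of the 110 members, 82 lie between -1.5 and -0.5 around the dashed line at -1, 19 lie above and 9 below.

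The members were described in 3 classes. A member was taken as near-halved when its log2 fold change lay within 0.5 of -1, that is at 35.4% to 70.7% of the wild type level. This class held 82 of the 110 members (74.5%), whereas 10.2% of all tested genes fell in that range. Above it were 19 members (17.3%, against 87.2% of all tested genes), and below it 9 (8.18%, against 2.57%). The members next to the upper limit were Potri.008G195700 inside at -0.59 and Potri.008G203100 outside at -0.41. Those next to the lower limit were Potri.008G194900 inside at -1.45 and Potri.008G194400 outside at -1.52. Replicate libraries mostly gave the same class: 68 members were near-halved in each mutant library, 19 were above and 6 below in each, and 17 changed class between mutant libraries.

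The near-halved class held the most abundant transcript of the stretch. Potri.008G203400 stood at 581, 578 and 612 CPM in the mutant libraries and at 1281, 1266 and 1225 CPM in the wild type libraries. Its log2 fold change was -1.09 ± 0.03 (SE), the mutant at 47.0% of wild type, with no overlap between genotypes. In the wild type this transcript reached 976 ± 22.6 FPKM (SD, n = 3), against 325 FPKM for the next member. Left out, the remaining members had a summed ratio of 0.524, so the loss was not that of 1 abundant gene.

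Other abundant members of the class lost a similar part of their level, or somewhat more or less. Potri.008G194100, Potri.008G198000 and Potri.008G201400, abundant as well, lay outside the class and are described below. Potri.008G199200 had 69.5, 73.1 and 70.7 CPM in the mutant libraries and 156, 147 and 152 CPM in the wild type libraries, a log2 fold change of -1.09 ± 0.03. Potri.008G198600 had 23.2, 22.9 and 23.1 CPM in the mutant libraries and 55.5, 51.5 and 52.8 CPM in the wild type libraries, a change of -1.20 ± 0.03. In both, the mutant libraries lay close together and far under the wild type ones. Potri.008G204200 kept somewhat more, with 101, 117 and 107 CPM in the mutant libraries and 185, 183 and 189 CPM in the wild type libraries, a change of -0.78 ± 0.06. Potri.008G194900 kept less, with 35.4, 37.2 and 37.8 CPM in the mutant libraries and 100.4, 102 and 98.4 CPM in the wild type libraries, a change of -1.45 ± 0.03. These 2 members, at 58.4% and 36.7% of wild type, mark how wide the class is: the difference between them was many times their SEs.

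Closest to an exact halving among well counted members were Potri.008G196400, Potri.008G204400, Potri.008G205900 and Potri.008G197300, with log2 fold changes of -1.0, -1.01, -1.01 and -1.02. Potri.008G205900 had 25.3, 27.6 and 24.2 CPM in the mutant libraries, against 50.2, 52.0 and 53.1 CPM in the wild type libraries. Potri.008G196400 had 5.80, 4.66 and 7.27 CPM in the mutant libraries, against 11.5, 12.2 and 11.9 CPM in the wild type libraries. Its SE was 0.19, that of Potri.008G205900 was 0.06, so its place at -1.0 is the less certain one. Across the whole class the mutant level was 36.7% to 65.5% of wild type, with quartiles of 42.0% and 55.4%. In 79 of the 82 every mutant library lay below every wild type library. Over all tested genes 32.6% had mutant libraries all below. The class is defined by a lower level in the mutant, so nothing is read from that comparison. The 3 that overlapped, Potri.008G195700, Potri.008G196800 and Potri.008G197500, had mean wild type counts of 10.7, 29.0 and 17.0.

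**Figure D2:**
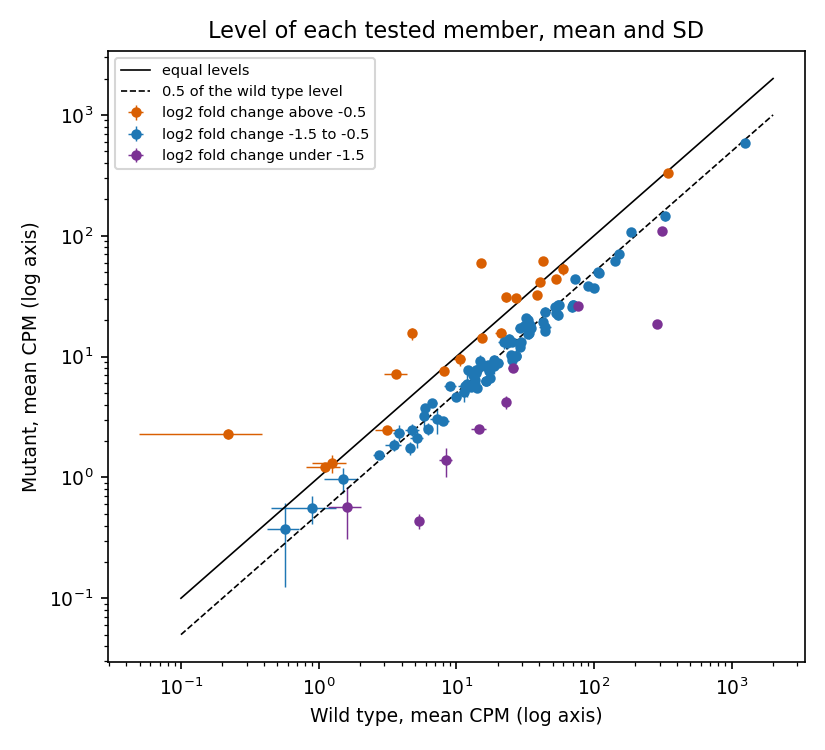
Mean CPM of each tested member in the mutant (vertical, log axis) against the wild type (horizontal, log axis), with bars for the SD over 3 libraries. Most members follow the dashed line at 0.5 of the wild type level up to the most abundant, Potri.008G203400, while 19 lie above the class and 9 below it.

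The 19 members above the class fell into 2 kinds. In 9 of them the log2 fold change was between -0.41 and -0.05, so that most of the wild type level was kept, and in 10 it was above 0 (9.09% of the 110 members, where 50.7% of all tested genes were above 0). With library totals alone 13 members stood above 0, so the sign of the members nearest to 0 depends on the scaling.

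Potri.008G198000 was the most abundant member to keep its level. It had 332, 325 and 345 CPM in the mutant libraries and 348, 355 and 335 CPM in the wild type libraries, and the genotypes overlapped. Its log2 fold change was -0.05 ± 0.04. In FPKM, on library totals, it stood at 228 ± 7.07 in the mutant and 217 ± 6.42 in the wild type (SD, n = 3 each), so its sign turns with the scaling. Its tested neighbours Potri.008G197800 and Potri.008G198100 were near-halved, at -0.68 and -0.70.

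Further members kept most of their level with narrow errors. Potri.008G194300 had 7.55, 7.36 and 7.90 CPM in the mutant libraries and 7.98, 8.36 and 8.22 CPM in the wild type libraries (-0.11 ± 0.04). Potri.008G207700 had 40.5, 42.7 and 41.5 CPM in the mutant libraries and 41.2, 39.1 and 42.0 CPM in the wild type libraries (0.03 ± 0.04). Potri.008G193900 was slightly lower, with 33.5, 31.9 and 32.0 CPM in the mutant libraries and 37.3, 39.0 and 39.4 CPM in the wild type libraries (-0.25 ± 0.03). None of the 3 was near-halved in any mutant library. Potri.008G200100, Potri.008G202800 and Potri.008G203100 stood at -0.17, -0.27 and -0.41 with mutant levels of 88.7%, 83.3% and 75.4% of wild type. Potri.008G198700 (-0.16 ± 0.13), Potri.008G200300 (0.11 ± 0.23) and Potri.008G200500 (0.08 ± 0.26) had wider errors, and their genotypes overlapped.

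Members that stood above the wild type level did so by very different amounts. Potri.008G192600, the first row of the stretch, had 57.5, 58.3 and 62.2 CPM in the mutant libraries and 15.6, 15.2 and 14.7 CPM in the wild type libraries. Its log2 fold change was 1.97 ± 0.04, a mutant level at 391% of wild type. Potri.008G204100, a short gene model of 342 bp, had 16.6, 13.5 and 16.6 CPM in the mutant libraries and 4.95, 4.44 and 4.95 CPM in the wild type libraries (1.71 ± 0.11). Both stood far outside the range of the replicates.

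Further on, the alternating members Potri.008G205000, Potri.008G205200 and Potri.008G205400, were higher in the mutant by smaller amounts. Potri.008G205000 had 28.0, 32.8 and 32.1 CPM in the mutant libraries and 23.4, 22.6 and 23.0 CPM in the wild type libraries (0.43 ± 0.07). Potri.008G205200 had 59.8, 63.6 and 62.6 CPM in the mutant libraries and 43.4, 44.5 and 40.6 CPM in the wild type libraries (0.53 ± 0.05). Potri.008G205400 had 6.91, 6.99 and 7.53 CPM in the mutant libraries and 4.13, 3.98 and 2.87 CPM in the wild type libraries (0.97 ± 0.17). The members between and beside them did not share this. Potri.008G205100 stood at -0.91 and Potri.008G205300 at -1.42.

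Potri.008G194000 was barely above the wild type, with 28.8, 30.2 and 32.0 CPM in the mutant libraries and 27.6, 27.6 and 26.8 CPM in the wild type libraries (0.15 ± 0.05). Potri.008G203200 had the highest ratio of the measured members, but it rested on few wild type counts, and it was singled out after its values were seen. It had 55, 40 and 41 counts in the mutant libraries and 1, 4 and 8 in the wild type libraries, a log2 fold change of 3.29 ± 0.81. Of the 19 members above the class, all mutant libraries lay above all wild type libraries in 7, below them in 6, and overlapped them in 6. Over all tested genes 34.5% had mutant libraries all above.

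The 9 members under the class had lost more. Potri.008G194100, the member with the next highest wild type level after Potri.008G203400, had 19.8, 17.9 and 17.7 CPM in the mutant libraries and 293, 302 and 272 CPM in the wild type libraries. The mutant stood at 6.41% of wild type, a log2 fold change of -3.96 ± 0.07, or 22.7 ± 1.5 FPKM in the mutant and 325 ± 17.5 FPKM in the wild type (SD, n = 3 each). Close to it in identifier order, Potri.008G194566 had 0.46, 0.49 and 0.37 CPM in the mutant libraries and 5.18, 5.56 and 5.25 CPM in the wild type libraries (-3.59 ± 0.13). Its neighbour Potri.008G194632 had 1.80, 1.30 and 1.05 CPM in the mutant libraries and 9.03, 8.72 and 7.38 CPM in the wild type libraries (-2.58 ± 0.24). Potri.008G194400 (-1.52 ± 0.41), Potri.008G194566 and Potri.008G194632 were the longest run of tested members under the class, 3 in a row. Of these, Potri.008G194400 and Potri.008G194566 passed the count minimum throughout only in the wild type, where they are high, so nothing is read from the run. If reads are split between similar neighbouring genes here, their single values are uncertain; this was not tested.

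Deep losses also occurred singly. Potri.008G202200 had 2.39, 2.60 and 2.51 CPM in the mutant libraries and 16.8, 14.0 and 13.2 CPM in the wild type libraries (-2.55 ± 0.11), between the near-halved members Potri.008G202100 and Potri.008G202300 (-1.19 and -1.08). Potri.008G208200 had 4.6, 4.33 and 3.66 CPM in the mutant libraries and 21.8, 24.2 and 22.8 CPM in the wild type libraries (-2.44 ± 0.11). The remaining 3 were just under the limit. Potri.008G199100, Potri.008G197000 and the abundant Potri.008G201400 stood at -1.68, -1.56 and -1.52, and with the last at 110, 106 and 111 CPM in the mutant libraries and 308, 317 and 318 CPM in the wild type libraries, the limit separates values that differ little.

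**Figure D3:**
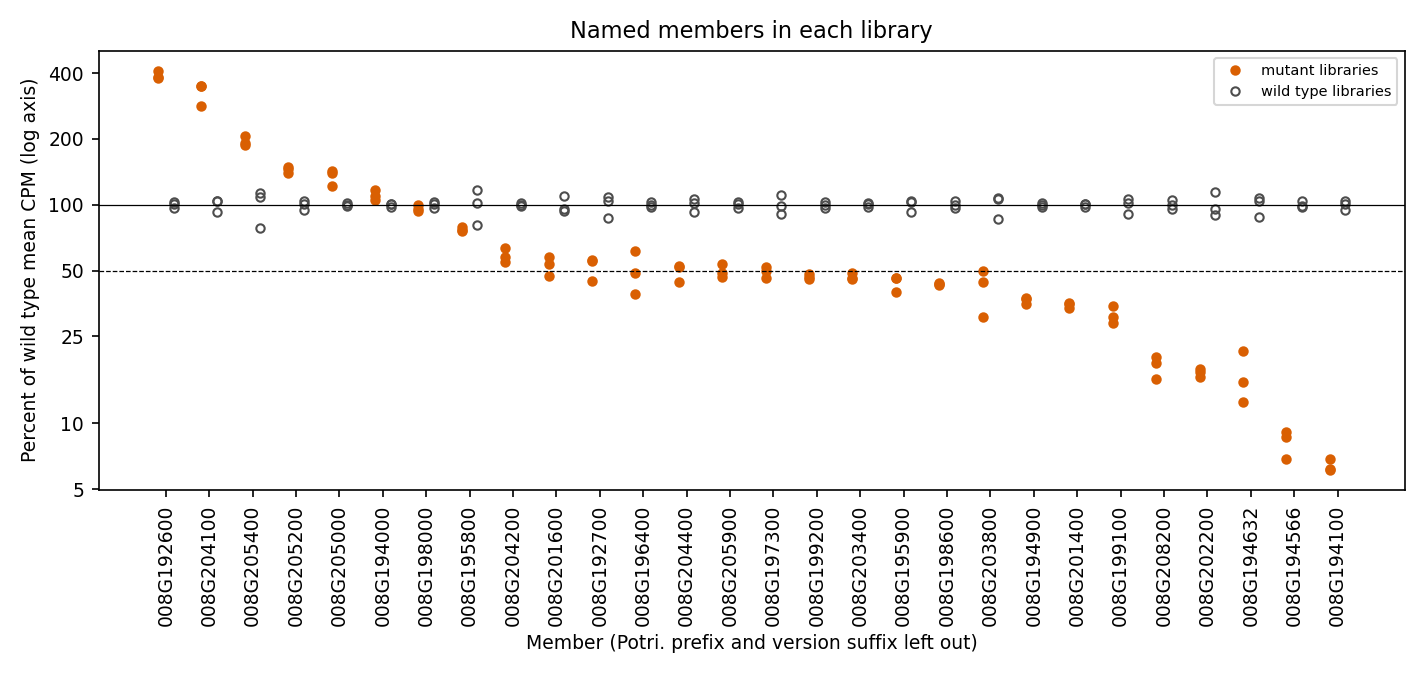
CPM of the named measured members in each mutant library (filled, left) and each wild type library (open, right), as a percentage of the wild type mean (log axis). Potri.008G192600 at 391% and Potri.008G194100 at 6.41% are the ends of the range among the members plotted, which the naming rule picked and which leave out Potri.008G203200, and replicates of a genotype lie close together beside the distance between members.

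The spread between members was wider than the replicate error. With all levels pooled, it was somewhat narrower than on the rest of chromosome 8. The middle 50% of members spanned 0.57 log2 (quartiles -1.27 and -0.70), against 0.69 for the rest of chromosome 8 (-0.25 and 0.44), while the median SE of a member was 0.08. The comparison depended on level. In the lowest tertile of wild type FPKM the span was 0.54 for members and 1.12 for outside genes. It was 0.54 against 0.41 in the middle tertile and 0.38 against 0.40 in the highest. From the median of the stretch, 71 of the 110 members were more than 2 SE away, where each SE rests on 3 libraries per genotype. The same count was not made for genes outside the stretch. Of the members 51.8% lay within 0.3 of that median, and 47.9% of genes outside the stretch lay within 0.3 of theirs. The upper limit of the near-halved class is 0.52 above the median of the stretch, and 17.3% of members lay beyond it; 22.2% of genes outside lay as far above their own median. The lower limit is 0.48 below, with 8.18% of members beyond it and 13.3% of outside genes as far below theirs. Both shares were lower for members than for outside genes of all levels pooled. Of the 27272 outside genes, 13341 lay in the lowest tertile's range of level, where their span was widest. The stretch was also chosen by these fold changes, so this is a description, with no test, and nothing is read from the comparison.

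Within 0.25 of no change lay 10 members (9.09%). For genes outside the stretch, the matched point lies as far above their own median as no change lies above the stretch median of -1.02. Within 0.25 of that point lay 6.45% of them. Replicate spread was similar inside and outside. The median coefficient of variation between libraries was 7.35% in the mutant and 5.16% in the wild type for members, and 6.46% in the mutant and 6.09% in the wild type for all genes outside.

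**Figure D4:**
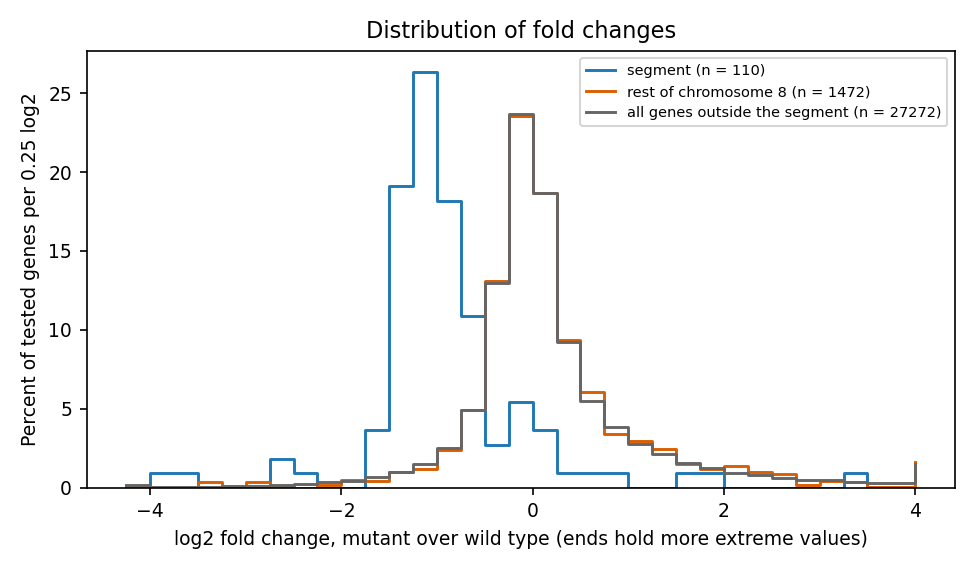
Percent of tested genes per 0.25 log2 of fold change (mutant over wild type), for the 110 members, the 1472 other genes of chromosome 8 and the 27272 genes outside the stretch. The members' distribution has its centre at -1.02, and the other distributions have theirs near 0. Within 0.25 of 0 lie 10 members (9.09%). Of outside genes, 6.45% lie within 0.25 of the point as far above their own median as 0 lies above -1.02.

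Members with a higher wild type level had slightly lower fold changes, as had genes in the rest of the genome. In the tertile of members with the lowest wild type level (0.139 to 7.36 FPKM) the median log2 fold change was -0.90, in the middle tertile -1.01, and in the highest tertile (18.9 to 976 FPKM) -1.09. Genes outside the stretch with the same levels had medians of 0.23, -0.05 and -0.16. The distance between members and outside genes was therefore -1.13, -0.97 and -0.93 from the lowest tertile to the highest. Across the 110 members Spearman's rank correlation between fold change and wild type FPKM was -0.26 (-0.255), against -0.39 across the 27272 outside genes; all points share the same 6 libraries. The wild type level is also the denominator of the fold change. With the mean of both genotypes as the level it was -0.11 among members, and with the mutant level 0.07, so even the sign depended on which level was used.

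Members above the near-halved class were found at each wild type level: 7 of 37 in the lowest tertile, 7 of 36 in the middle tertile and 5 of 37 in the highest. By mutant FPKM they numbered 6, 4 and 9 from the lowest tertile to the highest, and by mean FPKM of both genotypes 7, 4 and 8. The order over tertiles thus depended on which level was used. The median wild type level of members above the class was 9.37 FPKM, that of near-halved members 12.2 FPKM, and that of members below the class 16.8 FPKM, with overlapping quartiles (2.82 to 17.9, 5.76 to 25.2 and 7.27 to 32.5 FPKM). This level is also the denominator of the fold change that sets the classes. A mean wild type count under 50, at which errors are wide, was found for 3 of the 19, for 3 of the 82 near-halved members and for 1 of the 9 below.

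Length showed no such order. Median log2 fold changes were -0.95, -1.09 and -1.06 in the tertiles of 195 to 1474 bp, 1476 to 2142 bp and 2216 to 10957 bp, and the rank correlation was 0.04 across members. Members above the class numbered 5, 6 and 8 in these tertiles, and members below it 5, 3 and 1. The members below were the shorter ones, with a median of 1090 bp (675 to 2983 bp), against 1838 bp for near-halved members and 1778 bp for those above; with 9 genes, some of them neighbours, this is a description only. The ends of the length range were mixed. Of the 3 shortest members, Potri.008G203800 (195 bp) and Potri.008G197300 (252 bp) stood at -1.27 ± 0.23 and -1.02 ± 0.10, while Potri.008G204100 (342 bp) was among those well above the wild type, at 1.71 ± 0.11. The longest, Potri.008G195900 (10957 bp), had 152, 153 and 131 CPM in the mutant libraries and 308, 344 and 340 CPM in the wild type libraries (-1.18 ± 0.09). Of the next longest, Potri.008G201600 (4552 bp) stood at -0.92 ± 0.11 and Potri.008G195800 (4716 bp) at -0.38 ± 0.16.

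**Figure D5:**
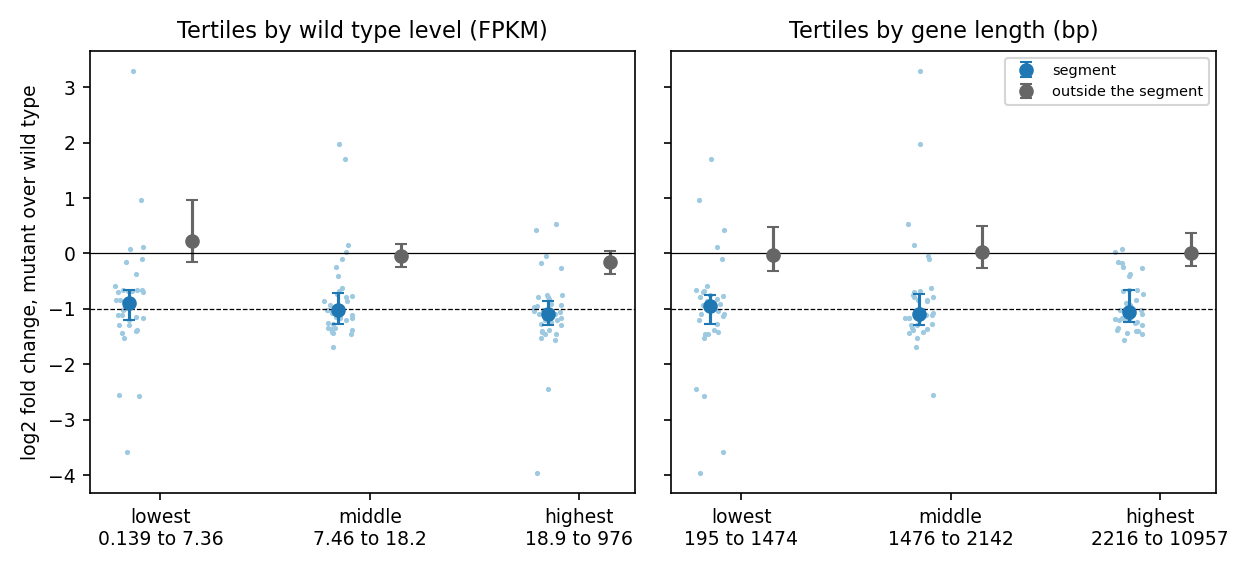
Log2 fold change (mutant over wild type) of members (blue, left) and of genes outside the stretch (grey, right) in tertiles by wild type FPKM and by gene length, with the median and bars to the quartiles; small points are single members. The medians of the members lie between -0.90 and -1.09 in every tertile, those of outside genes between -0.16 and 0.23.

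Gene length was not used in the choice of the stretch, whereas the wild type level enters the fold change that set it. The median wild type level was 12.1 FPKM (quartiles 5.14 and 22.9) among members and 8.66 FPKM (2.79 and 19.5) on the rest of chromosome 8. The median length was 1779 bp among members and 1849 bp on the rest of the chromosome. These differences were not tested.

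Along the stretch the medians were similar, and members above the near-halved class were scattered. In 8 successive groups of 13 or 14 tested members the median log2 fold change was -1.14, -1.16, -0.97, -1.02, -1.05, -1.09, -0.85 and -1.02. Each group held 9 to 12 near-halved members. The 19 members above the class formed 14 separate runs, 10 of them of a single gene, and 8 members above had near-halved members on both sides. The longest unbroken near-halved runs were of 9 tested genes, from Potri.008G192700 to Potri.008G193800 and from Potri.008G194700 to Potri.008G195700. The longest run above the class, 3 tested genes from Potri.008G202800 to Potri.008G203200, also holds the mutant-only counts of Potri.008G202900.

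The limits of the stretch did not coincide with the ends of the halved genes. At the near end, the first row (Potri.008G192600, 1.97) was a rise, while the row before it, Potri.008G192500, had 42.9, 51.5 and 40.4 CPM in the mutant libraries and 124, 123 and 124 CPM in the wild type libraries (-1.47 ± 0.10). The next row out, Potri.008G192300, stood at -0.22 ± 0.17. Of the 10 tested genes from Potri.008G191500 to Potri.008G192500, 6 were near-halved, 1 was below and 3 were above, among them 2 rises. The start of this window was set after the values were seen. Over all tested genes 10.2% were near-halved, 2.57% below and 87.2% above. The second row of the stretch, Potri.008G192700, was near-halved with 2.67, 2.65 and 2.15 CPM in the mutant libraries and 5.01, 5.2 and 4.16 CPM in the wild type libraries (-0.94 ± 0.14).

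At the far end, the near-halved run ended at Potri.008G207000, which had 8.66, 8.88 and 10.4 CPM in the mutant libraries and 19.3, 17.8 and 19.7 CPM in the wild type libraries (-1.03 ± 0.09). The 4 tested members after it were mixed, with Potri.008G207500 at -0.10, Potri.008G207700 at 0.03, Potri.008G208000 at -0.62 and Potri.008G208200 at -2.44. The last rows, Potri.008G208300 and Potri.008G208700, had no count in any library. Outside, Potri.008G209100 had 34.2, 32.3 and 35.1 CPM in the mutant libraries and 34.0, 33.7 and 35.1 CPM in the wild type libraries (-0.02 ± 0.04). Potri.008G209300 had 37, 29 and 31 counts in the mutant libraries and 0, 1 and 1 in the wild type libraries. The 106 tested members up to Potri.008G207000 had a median of -1.02, the same as the whole stretch.

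The table does not list these last rows in identifier order. All 138 rows are consecutive in the table, but 6 of them follow a row with a higher identifier, among them Potri.008G207500 after Potri.008G207700, and 66 of the 2039 rows of chromosome 8 do so in all. In both orders Potri.008G207000 comes before the mixed rows and Potri.008G209100 after them. Whether either order is that of the genes on the chromosome of the hybrid was not checked.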

How the data were processed

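RNA was measured by sequencing in 6 pooled stem libraries. Raw counts per gene and FPKM were deposited by the authors in 1 table, per the file headers; the sources used here give no aligner, counting rule, strand setting or build. The deposited FPKM imply 1 length per gene, which was used as gene length. Members were rows with identifiers from Potri.008G192600 up to Potri.008G209100. The stretch, the classes and the members were chosen with earlier results of these data known.

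All 35792 rows entered filterByExpr (minimum count 10, minimum total 15), which kept 27382. They were scaled by TMM and fitted with edgeR 4.0.16 (R 4.3.3) by the quasi-likelihood test without a block, adjusted by Benjamini-Hochberg over all tested genes. The script was tested on simulated data. Named were the 8 members with the highest wild type FPKM; the 6 highest and 6 lowest fold changes with a mean wild type count of at least 50; the 4 closest to -1 with at least 200; the 2 rows on each side of each limit; the 3 longest and 3 shortest; and members with 0 counts in 1 genotype and at least 10 in each library of the other, of which there were 0. Others are named from class limits, classes and runs, after their values were seen. No columns of per-sample values were left unused. Labels call the pools biological replicates; the spread is that between pools. Alternatives used DESeq2 1.42.0 and limma 3.58.1.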

Additional observations from a re-analysis of the deposited data

How the results depend on the processing

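The median log2 fold change of the members, -1.02, was -0.894 with library totals only, -0.887 with limma on log2(FPKM + 0.1) and -0.755 with limma on log2(FPKM + 1), whose pseudocount shrinks low genes. Its distance from the rest of chromosome 8 was -0.876 in that last setting, -1.07 with DESeq2 and -1.068 without the count filter, against -1.03. The limma fit with a pseudocount of 1 put 32 members above the near-halved class and 5 below it. Without the filter 14 were below it. With a class width of 0.3 log2, 24 were below it, and with 0.75, 5. The quartile distance was 0.628 without the filter. The ratio of summed levels was 0.503 with TMM from the rest of chromosome 8, 0.558 with library totals, 0.508 without the rows after Potri.008G207000 and 0.524 without Potri.008G203400, the last 2 chosen after seeing the data. It was not run with limma, DESeq2's test or the block. Spearman's rank correlation with level was -0.467 (pseudocount 1), -0.174 (mean count of at least 50), -0.187 (no filter), -0.111 (mean level) and 0.066 (mutant level), the last 2 also chosen afterwards. The rank correlation with length was -0.004 with DESeq2, 0.114 with the pseudocount of 1 and 0.013 without the rows after Potri.008G207000. Leaving out each library in turn gave medians of -1.044 to -1.001, quartile distances of 0.495 to 0.627 and rank correlations with length of 0.013 to 0.046. Same-numbered mutant and wild type libraries did not deviate together (r of -0.0125 to 0.0117), so the numbers were not taken as pairs; with the replicate block the median was -1.013, with 82 members near-halved. Of 510 values of named genes under other settings, 451 were counted as unchanged, 59 as moved, and 0 called ones changed sign. Some counted as unchanged still moved by more than their SE. Potri.008G192500, for example, was -1.343 with library totals, against -1.466 with an SE of 0.10. Low counts limit the 7 measured members with a mean wild type count under 50.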
